A study of Homo sapiens with 4 samples.

Results

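TGF-beta and BMP pathway genes were described through the acetylated chromatin regions that the authors named with them. A region belonged to the set when its assigned gene was TGFB1, TGFB2, TGFB3, TGFBR1, TGFBR2 or TGFBR3, or when the gene symbol began with BMP or GDF and a digit, with SMAD and a digit, or with BMPR, INHB or ACVR. The rule found 479 regions beside 44 genes, of 91107 distinct regions in the authors' deposited table. RefSeq lists 49 protein-coding human genes with such symbols, and BMP3, BMP15, GDF2, GDF3 and INHBC had no region in the table analysed here. The symbol rule also takes in BMP1, a procollagen protease that cleaves extracellular matrix and BMP antagonists, and BMP2K, a kinase named for its induction by BMP2, neither of which is a ligand.

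Ligands of the TGF-beta family are secreted dimers that bring together type I and type II receptor kinases at the cell surface. TGF-betas, activins and some GDFs act through the transcription factors SMAD2 and SMAD3, and BMPs and other GDFs through SMAD1, SMAD5 and SMAD9. Both sets of SMADs enter the nucleus with SMAD4, and SMAD6 and SMAD7 inhibit the signal. In melanoma the pathway is known for its part in invasion and in the switch between pigmented and undifferentiated cell states.

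The mark measured was H3K27ac, acetylation of histone H3 that marks active promoters and enhancers, read by ChIP-seq (sequencing of the DNA that an antibody to the mark pulls down) in the established melanoma cell line A375. The labels give 4 libraries in 2 groups: 2 from cells treated with the vehicle isopropanol and 2 from cells treated with octanoate (1 mM), the salt form of a fatty acid of medium chain length, and every treatment lasted 48 hours. All were A375 cells, and the labels name no genotype difference between the groups. The table analysed holds 1 comparison with no value for any single library, so no value per sample can be given, the depth is unknown, and every error printed is the standard error (SE) that the authors' model gave to a region. The labels do not say that the libraries of a group came from separate cultures, so the p-values may measure technical spread only.

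Which group was divided by which is not named in the table's header, so a positive fold change cannot be read here as a gain under octanoate, nor a negative one as a loss. Coordinates are those of the table, and the submitters' processing notes name the build hg38. Each region stands for a pool of cells, in which a smaller share of acetylated cells and less acetylation per cell cannot be told apart. Of 8 melanocyte lineage markers, 7 had a region that the authors' deposited table gives an adjusted p-value, and the highest level, 774 in the authors' normalized units, was over the start of SOX10. DCT, a pigment enzyme gene, had none. ALB, the hepatocyte marker, had no region, while all 7 epithelial, leukocyte and endothelial markers had at least 1 such region, of levels up to 408 (PTPRC), and EPCAM alone had one over its start (level 50.5).

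The authors' deposited table gives an adjusted p-value to the 36436 regions whose mean level was 18.4 or more, and 191 of the 479 pathway regions, beside 40 genes, were among them. The other 288 pathway regions were below that level and enter no count of calls. ACVR1C, BMP5, BMP8A and SMAD4 had regions below it only. A region without an adjusted p-value is not shown to be without change.

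4 promoters are shown: GDF15 with a called region, INHBA and TGFB2 as ligand genes whose many regions had unlike fold changes, and SMAD6. The last was chosen as an inhibitor with a SMAD motif, so the motif there is no separate result. Each line holds the 250 bases before a RefSeq start (GRCh38.p14), written 5′ to 3′ on the gene's strand. Capitals mark matches on either strand to CAGAC (the SMAD box), GTCTAGAC (a palindromic SMAD element) or TATAAA (the core promoter box of that kind). GGCGCC (a second SMAD element), TGANTCA (AP-1) and TGACGTCA (CRE) were also searched and had no match in these 4.
GDF15, chr19:18385908-18386157, plus strand: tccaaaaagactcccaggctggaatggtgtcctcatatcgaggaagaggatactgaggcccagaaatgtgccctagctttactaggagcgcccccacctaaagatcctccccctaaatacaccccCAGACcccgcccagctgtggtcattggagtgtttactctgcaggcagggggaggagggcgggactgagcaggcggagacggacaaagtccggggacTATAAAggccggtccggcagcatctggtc
INHBA, chr7:41703091-41703340, minus strand: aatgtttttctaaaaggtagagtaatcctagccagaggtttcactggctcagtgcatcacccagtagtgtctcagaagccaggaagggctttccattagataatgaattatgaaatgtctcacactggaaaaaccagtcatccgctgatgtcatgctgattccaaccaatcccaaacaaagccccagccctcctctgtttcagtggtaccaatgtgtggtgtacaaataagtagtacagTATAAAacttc
TGFB2, chr1:218345086-218345335, plus strand: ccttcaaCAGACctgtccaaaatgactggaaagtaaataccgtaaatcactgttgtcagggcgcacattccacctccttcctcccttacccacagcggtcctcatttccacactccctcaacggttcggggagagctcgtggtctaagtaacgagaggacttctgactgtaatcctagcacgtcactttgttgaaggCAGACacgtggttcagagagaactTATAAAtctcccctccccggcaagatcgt
SMAD6, chr15:66701986-66702235, plus strand: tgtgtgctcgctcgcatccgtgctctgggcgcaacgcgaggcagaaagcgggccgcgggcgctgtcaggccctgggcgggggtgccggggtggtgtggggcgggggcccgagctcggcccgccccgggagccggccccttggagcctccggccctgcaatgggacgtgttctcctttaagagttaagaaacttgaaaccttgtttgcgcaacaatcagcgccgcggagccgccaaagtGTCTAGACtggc
The GDF15 and SMAD6 windows lay wholly inside an acetylated region of the same gene, whereas the regions of INHBA and TGFB2 covered 95 and 59 of the 250 bases. TATAAA ended 24 bases before the start in GDF15 and TGFB2, matched at -29 to -24 counted from the start, and at -11 to -6 in INHBA. GTCTAGAC at -12 to -5 was found in SMAD6 alone among 37 member genes with a RefSeq window, and in 0.182% of all 35116 windows of that length. CAGAC was found in 15 of the 37 genes and in 33.8% of their 68 windows, beside 38.0% of all windows. GGCGCC was found in 23.5% of the members' windows and 16.4% of all, TGANTCA in 4.41% and 6.57%, TATAAA in 13.2% and 10.7%, and TGACGTCA in 0 of 68 and 1.65%. A match is a string of letters in a window and does not show that a factor is bound there.

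6 of the 191 pathway regions passed the authors' adjusted p-value of 0.05, which is 3.14% beside 1.67% of all tested regions in the authors' deposited table. All 6 had positive fold changes, as did 601 of all 608 calls. Of the 191 regions, 4 were calls with a log2 value of 1 or more, and calls of that size in either direction made up 0.876% of all tested regions. The 6 calls lay beside the ligand genes GDF15, BMP2, BMP6 and INHBE (2 regions) and the receptor gene TGFBR2. Adjusted over all 91107 distinct regions, 3 of the 479 pathway regions passed, beside 0.274% of all regions. These 3 were among the 6 calls (GDF15, BMP2 and 1 region of INHBE). At an unadjusted p-value under 0.05 there were 30 pathway regions, or 15.7%, beside 18.4% of all tested regions. All 30 were positive, as were 6538 of the 6711 such regions among all tested. The median log2 fold change of the 191 regions in the authors' deposited table was 0.26, a ratio of 1.20, with quartiles of 0.11 and 0.48, beside a median of 0.32 for all tested regions. Of the 191, 161 were positive (84.3%), and 87.3% of all tested regions were. The positive shift was thus shared by most regions of the genome. When the median of all tested regions was subtracted and the p-values were computed again from the authors' standard errors, none of the 191 regions passed, and 45 of all tested regions did (0.124%). The lowest adjusted p-value among pathway regions was then 0.331, at GDF15. At an unadjusted p-value under 0.05 after that subtraction, 7 of the 191 pathway regions lay above the median, beside 2.6% of all tested regions. Below it lay 4 of the 191, beside 3.13%.

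**Figure D1:**
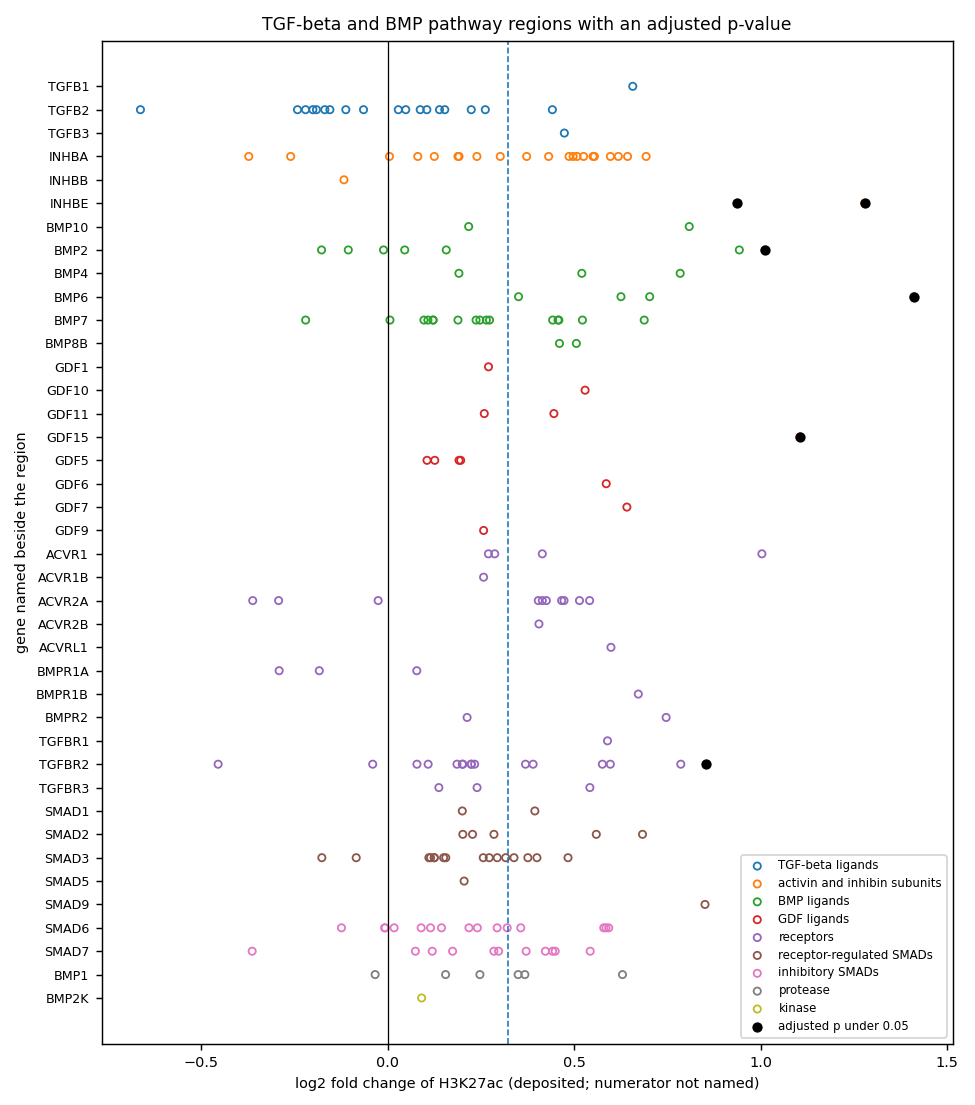
Each circle is 1 of the 191 pathway regions with an adjusted p-value, placed by its deposited log2 fold change (horizontal axis) beside its gene (vertical axis) and coloured by the role of the gene. Black points are the 6 calls, the solid line is at 0 and the dashed line at 0.32, the median of all tested regions. The TGFB2 circles lie almost wholly left of the dashed line, and the 6 calls run from 0.85 to 1.41.

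The 20 tested regions of the TGF-beta ligand genes had a median log2 fold change of 0.04 in the authors' deposited table, the lowest of the 4 ligand groups. Of the 20, 0 were calls, beside 1.67% of all tested regions, so the absence of calls in so few regions says little. TGFB1, the main TGF-beta of blood platelets and many tumours, had 1 region, over its start (chromosome 19, 41350416 to 41354633), with a mean level of 121. Its log2 fold change was 0.66 with an SE of 0.25 in the authors' deposited table (DESeq2 adjusted p-value 0.150). The same region was also named with B9D2 and TMEM91, so it cannot be assigned to TGFB1 alone. TGFB3 had 1 region as well, 255 bases from its start in the authors' deposited table, with a log2 fold change of 0.47 and an SE of 0.35.

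TGFB2, a ligand expressed in many invasive melanomas, accounted for the low value of that group. The authors' deposited table held 40 regions beside TGFB2, spread over 412 kb of chromosome 1, and 18 had an adjusted p-value. Of these 18, 9 were positive and 9 negative, 17 lay below the median of all tested regions, and their median log2 fold change was -0.02. The region over the TGFB2 start (chromosome 1, 218345277 to 218347605) was at a log2 fold change of 0.09 ± 0.27 (SE) and a mean level of 68.9 in the authors' deposited table. Its strongest region (218658046 to 218663206), 312 kb beyond the start, had a level of 127 and a log2 fold change of -0.20 ± 0.22 (SE) in the authors' deposited table. The most negative of all tested pathway regions also lay here (218479138 to 218480700), with -0.66 ± 0.39 (SE) and an adjusted p of 0.334 in the authors' deposited table. No TGFB2 region was called, before or after the common median was subtracted, beside 1.67% and 0.124% of all tested regions. After that subtraction 2 of the 18 had an unadjusted p-value under 0.05, both below the median, beside 3.13% of all tested regions.

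The low values were not limited to regions named with TGFB2. Within 1 Mb on either side of its regions, 24 tested regions named with other genes had a median log2 fold change of -0.07 in the authors' deposited table, and 10 of them were positive. Among these, 11 regions of LYPLAL1 had a median of -0.09 and 4 of RRP15 a median of 0.57. The 4282 other tested regions of chromosome 1 had a median of 0.31. What part these shared low values of the stretch have in the TGFB2 result was not tested.

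Activin subunit genes had the highest median of the 4 ligand groups. Their 24 tested regions had a median log2 fold change of 0.46 in the authors' deposited table, 10 had an unadjusted p-value under 0.05 (18.4% of all tested regions did), and 2 were calls (beside 1.67%), both at INHBE. INHBE encodes a subunit made chiefly in liver and known to be induced by stress of the endoplasmic reticulum. The region over its start (chromosome 12, 57454273 to 57456181) was at 1.28 ± 0.34 (SE, log2 fold change) with a level of 31.8 in the authors' deposited table (DESeq2 adjusted p-value 0.0206). The second (57456890 to 57462833) had 0.94 ± 0.24 (SE), a level of 120 and an adjusted p of 0.0150 in the authors' deposited table. That region overlaps INHBE and GLI1, an effector of Hedgehog signalling, and the authors named it with both genes. The 2 calls therefore sit side by side, but the one with the higher level also overlaps GLI1 and cannot be assigned to INHBE alone. When p-values were adjusted over all 91107 regions, the region over the INHBE start missed the threshold with 0.0511 and the other kept it with 0.0375.

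INHBA, which encodes the subunit of activin A, had more regions than any other pathway gene, 56 in the authors' deposited table. Of the 21 with an adjusted p-value, 19 were positive (beside 87.3% of all tested regions), 8 had an unadjusted p-value under 0.05 (beside 18.4%) and 0 were calls (beside 1.67%). Their median log2 fold change was 0.43. The domain over its RefSeq promoter window (chromosome 7, 41693289 to 41703185), 9896 bases wide, had a level of 344 and a log2 fold change of 0.49 ± 0.22 (SE) in the authors' deposited table. A further 12 tested regions lay more than 400 kb away on the downstream side. All 12 were positive in the authors' deposited table, from 0.08 to 0.69, and 7 had an unadjusted p-value under 0.05, where 87.3% and 18.4% of all tested regions did. The 3 broadest of these, 10666 to 14711 bases wide, overlapped no gene in RefSeq and had log2 fold changes of 0.69 ± 0.21, 0.62 ± 0.21 and 0.55 ± 0.19 (SE) in the authors' deposited table. The one nearest to a call (41216252 to 41226918) had an adjusted p-value of 0.0571. Assignment of regions this far away rests on proximity only. In the flanks of 1 Mb, 24 tested regions named with other genes had a median of 0.09, below that of the INHBA regions. INHBB had 1 tested region, at -0.12 in the authors' deposited table.

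**Figure D2:**
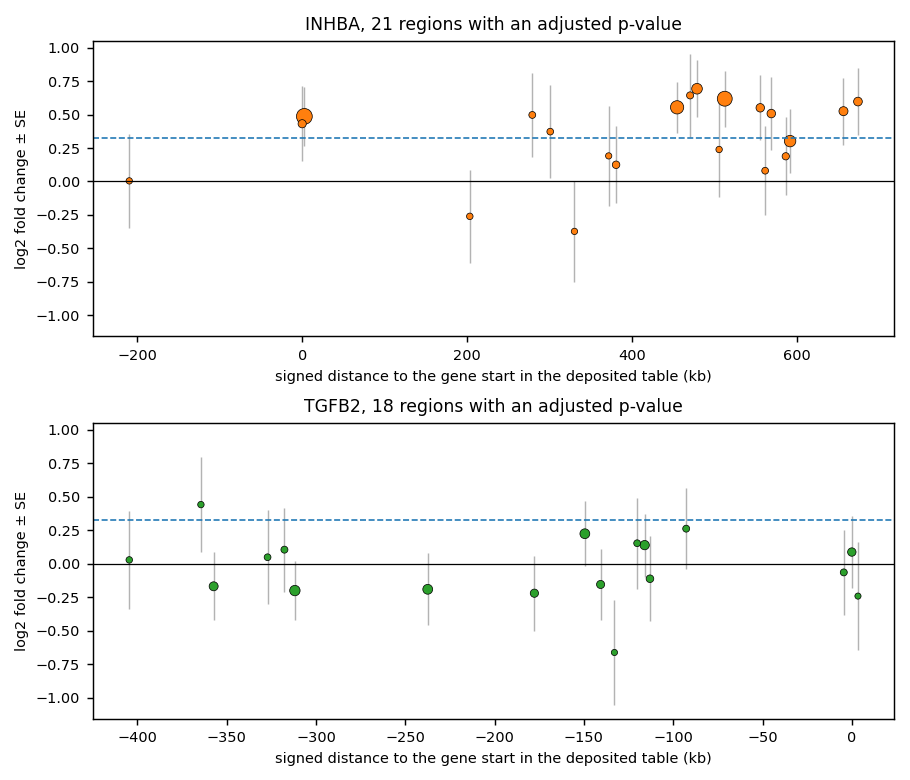
Deposited log2 fold change (vertical axis, bars are ± SE) of each region with an adjusted p-value beside INHBA (21 regions, above) and TGFB2 (18 regions, below), against its signed distance to the gene start in kb (horizontal axis). Larger circles have a higher mean level, the solid line is at 0 and the dashed line at 0.32. The 12 INHBA regions beyond 400 kb are all above 0, and 17 of the 18 TGFB2 regions are below the dashed line.

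The INHBA and TGFB2 loci are both wide, and their fold changes overlapped: the INHBA regions ran from -0.37 to 0.69 and those of TGFB2 from -0.66 to 0.44 in the authors' deposited table. The regions of 1 gene come from the same libraries and lie side by side, so their number is not a number of replicates. The difference between the medians of the 2 loci was not tested, because no value per library was given.

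BMP ligand genes had 34 tested regions with a median log2 fold change of 0.27 in the authors' deposited table, and 2 calls, each over a start, beside 1.67% of all tested regions and 0.86% of those at starts. BMP2, an inducer of bone and cartilage that is also made by melanoma cells, was called at its start (chromosome 20, 6766793 to 6771720). That region had a log2 fold change of 1.01 ± 0.25 (SE), a ratio of 2.02, at a level of 78.5 in the authors' deposited table (DESeq2 adjusted p 0.0144). The other 6 tested regions of BMP2 ranged from -0.18 to 0.94 and were not called. Its strongest region away from the start (6533265 to 6534986) had -0.11 ± 0.29 (SE) in the authors' deposited table. The start exceeded it by 1.12, with a combined SE of 0.39 if the errors are independent. BMP2 had the largest such contrast, relative to its error, among the 19 genes with both kinds of region.

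BMP6, a regulator of iron balance through hepcidin, had the largest fold change of all tested pathway regions. The called region (chromosome 6, 7726131 to 7727867) was at 1.41 ± 0.39 (SE, log2 fold change), a ratio of 2.66, in the authors' deposited table (DESeq2 adjusted p 0.0301). Its level of 24.1 was among the lower ones tested, and adjustment over all regions gave 0.0742. The other 3 tested BMP6 regions lay 26 to 52 kb from the start with log2 fold changes of 0.35, 0.63 and 0.70 in the authors' deposited table, so all 4 were above the common median. The start exceeded the strongest of them by 1.06, with a combined SE of 0.46. BMP2 and BMP6 were the only ones of the 19 genes in which the start and the strongest other region differed by more than 2 combined SE, and in the other 17 they did not. The start was the higher of the pair in 10 genes and the lower in 9.

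BMP4, a morphogen of the early embryo, had a region over all 3 of its RefSeq windows (chromosome 14, 53951184 to 53955431), with 0.78 ± 0.28 (SE) and an adjusted p of 0.116 in the authors' deposited table. The 16 tested regions of BMP7, a BMP of kidney and eye development, had a median of 0.24, and 15 were positive. The strongest of them (chromosome 20, 57028088 to 57035173), 231 kb from the start, had a level of 272 and 0.24 ± 0.22 (SE) in the authors' deposited table. The region over the BMP7 start had a level of 10.6 and no adjusted p-value. So acetylation named with BMP7 lay mostly away from its start. BMP8B had 2 tested regions, at 0.46 and 0.51, and BMP10, a ligand of the heart, had 2 at 0.22 and 0.81 in the authors' deposited table.

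GDF ligand genes had 12 tested regions beside 8 genes, all positive, with a median log2 fold change of 0.26 in the authors' deposited table. GDF15, a hormone that signals nausea and lowers appetite and is known to be induced by cell stress, held the lowest p-value of the whole set. The region over its start (chromosome 19, 18384225 to 18388032), which contains the promoter shown above, had a log2 fold change of 1.11 ± 0.26 (SE) in the authors' deposited table, a ratio of 2.15. Its level was 79.6, its unadjusted p-value 1.73e-05 and its adjusted p-value 0.00651. It also passed at a threshold of 0.01, the one pathway region to do so, beside 0.351% of all tested regions, and had an adjusted p-value of 0.0163 over all regions. Above the common median it was 0.78.

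The other GDF genes had lower values. All 4 regions of GDF5, a ligand of joint formation, lay below the common median, between 0.11 and 0.20 in the authors' deposited table. The strongest of them, over its start, was also named with CEP250 and had a level of 197. GDF9, an oocyte ligand whose start region was also named with UQCRQ, had 0.26, and GDF11, a ligand of axial patterning, had 0.26 at its start in the authors' deposited table. GDF1 had 0.27 in a region shared with CERS1. GDF6, GDF7 and GDF10 each had 1 tested region, with 0.59, 0.64 and 0.53.

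Receptor genes had 43 tested regions beside 11 genes, with a median log2 fold change of 0.29 in the authors' deposited table. There was 1 call among the 43, beside 1.67% of all tested regions. The called region lay 257 kb from the start of TGFBR2, the type II receptor that binds TGF-beta (chromosome 3, 30341210 to 30349911), and overlapped LOC101927995 in RefSeq. Its log2 fold change was 0.85 ± 0.25 (SE) at a level of 129 in the authors' deposited table (DESeq2 adjusted p 0.0394, or 0.0969 over all regions). The region over the TGFBR2 start had 0.22 ± 0.25 (SE), and the start minus the called region was -0.63 with a combined SE of 0.35. Over its 16 tested regions TGFBR2 ran from -0.45 to 0.85 with a median of 0.22. The locus therefore held both the called receptor region and the second most negative tested region of the pathway (30448286 to 30450152). In the flanks of 1 Mb, 14 tested regions named with other genes had a median of 0.06, and 8 were positive. The 2345 other tested regions of chromosome 3 had a median of 0.30. What part these low flanks have in the TGFBR2 values was not tested.

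The type I receptor TGFBR1 had 0.59 ± 0.31 (SE) at its start and the co-receptor TGFBR3, or betaglycan, a median of 0.24 over 3 regions in the authors' deposited table. ACVR1, a type I receptor for BMPs, had 0.29 ± 0.29 (SE) at its start. A region inside the ACVR1 span (chromosome 2, 157854886 to 157858817) had 1.00 ± 0.33 (SE) and an adjusted p of 0.0763 in the authors' deposited table. ACVR2A, a type II receptor for activins, had 10 tested regions, 7 positive, with a median of 0.42, and 9 of the 10 lay more than 100 kb from its start. At their starts ACVR1B, ACVR2B and BMPR2 had 0.26, 0.41 and 0.21 in the authors' deposited table, with SEs from 0.22 to 0.27.

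BMPR1A and BMPR1B, 2 type I receptors for BMPs, had unlike levels at their starts. The difference between their fold changes was not tested, and both had wide errors. The BMPR1A start (chromosome 10, 86754896 to 86759928) had a level of 195, or 38.7 per kb of region, and a log2 fold change of 0.08 ± 0.24 (SE) in the authors' deposited table. The BMPR1B start (chromosome 4, 94757012 to 94758712) had a level of 27.2, or 16 per kb, and 0.67 ± 0.35 (SE). Neither was called. The other 2 tested regions of BMPR1A were negative, at -0.29 and -0.18 in the authors' deposited table. ACVRL1, a receptor of blood vessel cells, had 1 tested region, at 0.60, and its start had a level of 9.28 and no adjusted p-value.

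SMAD genes had some of the broadest domains of the pathway and some of the highest levels. A level is given for a whole region, so a wide region can have a high level without more signal per kb. Of their 51 tested regions 0 were calls, beside 1.67% of all tested regions, a share at which fewer than 1 call would fall in 51. At an unadjusted p-value under 0.05 there were 6 (11.8%, beside 18.4% of all), all positive in the authors' deposited table. Of the 6711 such regions among all tested, 6538 were positive. Of the 10 pathway regions with a level of at least 200, 4 lay beside SMAD3 and 2 beside SMAD6, with 3 at INHBA and 1 at BMP7. The region of highest level, also the widest (chromosome 15, 67116576 to 67135787), lay inside SMAD3. It had a level of 532 over 19211 bases and was wider than 99.9% of all regions. Its log2 fold change was 0.48 ± 0.20 (SE) with an adjusted p of 0.173 in the authors' deposited table. The median over the 16 tested SMAD3 regions was 0.21. The region with a distance of 0 covers an internal start of SMAD3 and had -0.08 ± 0.29 (SE) in the authors' deposited table. It was the only tested region over a start with a negative fold change. The outermost SMAD3 start lay in another region (67064754 to 67069411), with a level of 199.8 and 0.34 ± 0.23 (SE).

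The other receptor-regulated SMADs had values of the same order. The starts of SMAD1, SMAD2 and SMAD5 had log2 fold changes of 0.39, 0.23 and 0.20 in the authors' deposited table, with SEs from 0.24 to 0.31. SMAD9, an effector of BMP receptors, had 1 region, over its start (chromosome 13, 36919062 to 36920361), with 0.85 ± 0.42 (SE) at a level of 20.3 and an adjusted p-value of 0.257. For the inhibitory SMADs, 26 tested regions had a median of 0.26, and 22 were positive. The SMAD6 start (chromosome 15, 66700254 to 66705735), which contains the palindrome shown above, had 0.32 ± 0.24 (SE) at a level of 172 in the authors' deposited table, within 0.01 of the common median. Its 2 strongest regions, inside the gene (66742770 to 66752556 and 66757552 to 66771755), had -0.01 ± 0.21 and 0.02 ± 0.20 (SE). The SMAD7 start (chromosome 18, 48946549 to 48953384) had 0.42 ± 0.25 (SE) at a level of 152. BMP2K had 0.09 ± 0.23 (SE) at its start and BMP1 a median of 0.30 over 6 regions in the authors' deposited table.

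Regions over starts and elsewhere were compared, with a distance of 0 in the authors' deposited table read as overlap with a start. Of the 32 such pathway regions 25 overlapped a RefSeq window of the same gene, and 29 had an adjusted p-value. Their median log2 fold change was 0.35, the same to 2 decimals as for all tested regions at starts. Among the 29, 4 were calls in the authors' deposited table, beside 0.86% of all tested regions at starts. Away from starts the median was 0.24 for 162 tested pathway regions and 0.31 for all such regions, and 2 of the 162 were calls, beside 1.97%. Without the subtraction of a common median the 4 called starts, GDF15, BMP2, INHBE and BMP6, all belonged to secreted ligands. The starts of receptors and SMADs held none. At a share of 0.86% that is the usual outcome for so few starts, so no contrast with the ligands follows. Beyond 100 kb the 79 tested pathway regions had a median of 0.19, and 19 of them were negative.

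**Figure D3:**
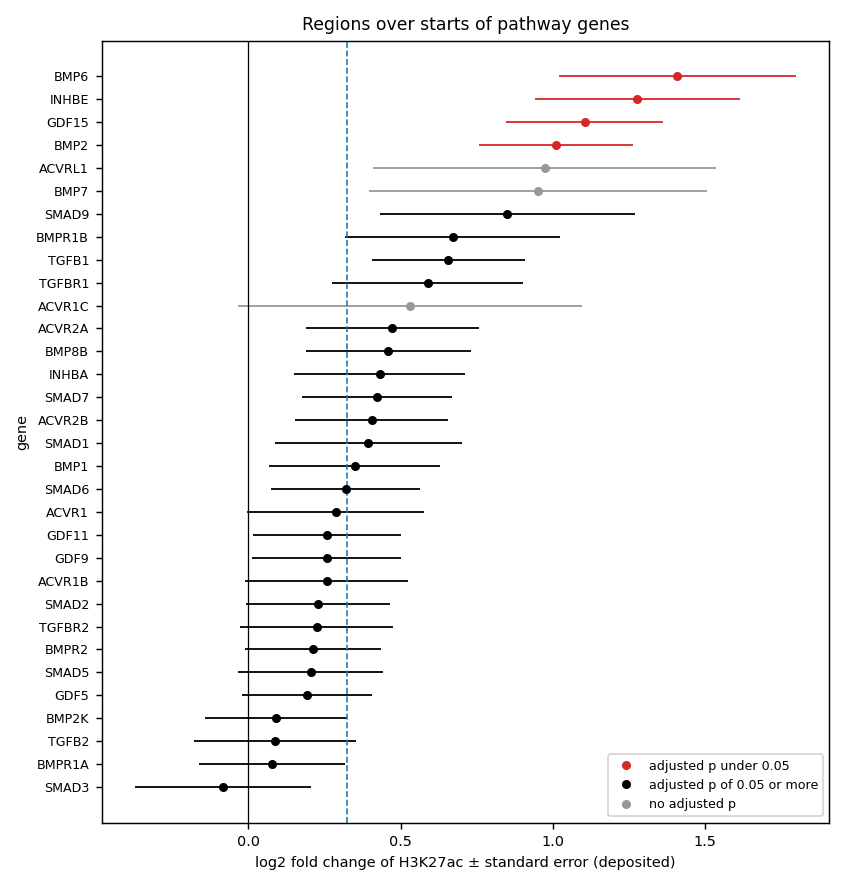
Deposited log2 fold change (horizontal axis, bars are ± SE) of the 32 pathway regions over gene starts, ordered by value with the gene on the vertical axis. Red marks the 4 calls, black the other 25 with an adjusted p-value and grey the 3 without one; the solid line is at 0 and the dashed line at 0.32. The bars of the 4 calls lie wholly right of the dashed line, and most others cross it.

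Other genes of the pathway were taken from a list of 55 antagonists, latency proteins, co-receptors, signal modifiers and targets, of which 53 had regions (AMH and CER1 had none). Of their 227 tested regions 6 were calls, or 2.64%, beside 1.67% of all tested regions in the authors' deposited table. All 6 were positive, as were 601 of all 608 calls. The 227 regions had a median log2 fold change of 0.36. None of the 6 passed once the common median was subtracted, and 2 of the 6, the ID1 region and 1 FST region, passed with adjustment over all distinct regions.

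Direct targets held 3 of these calls in 30 tested regions, beside 1.67% of all tested regions. Their median log2 fold change was 0.56 in the authors' deposited table, where that of all tested regions was 0.32. ID1 and ID3, inhibitors of basic helix-loop-helix factors and targets of BMP signalling, had calls over their starts. The ID1 start (chromosome 20, 31601874 to 31611957) had 0.87 ± 0.22 (SE) at a level of 348, with an adjusted p of 0.0155 in the authors' deposited table. The ID3 start (chromosome 1, 23553940 to 23565141) had 0.72 ± 0.21 (SE), and a region 25 kb away (23584766 to 23588266) 0.99 ± 0.28 (SE), with adjusted p-values of 0.0409 and 0.0324 in the authors' deposited table. All 15 tested regions of ID1, ID2, ID3 and ID4 were positive, with a median of 0.61.

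TGFBI, a matrix protein named for its induction by TGF-beta, had the opposite sign. Of its 11 tested regions 8 were negative in the authors' deposited table, with a median log2 fold change of -0.16. The 2 lowest (chromosome 5, 136013695 to 136015229 and 136017231 to 136021784) had -1.002 ± 0.389 and -0.61 ± 0.26 (SE), with adjusted p-values of 0.155 and 0.185. They were the only regions of the listed genes that were negative at an unadjusted p-value under 0.05. The TGFBI start had 0.31 ± 0.31 (SE). The grouping of the ID genes and the separate mention of TGFBI were chosen after their values were seen.

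Extracellular inhibitors held 2 calls in 45 tested regions (beside 1.67% of all), both beside FST, or follistatin, which binds activins. These were 20079 and 21174 bases wide (chromosome 5, 53349986 to 53370065 and 53410489 to 53431663), with levels of 441 and 516 and log2 fold changes of 0.67 ± 0.19 and 0.74 ± 0.19 (SE) in the authors' deposited table. Their adjusted p-values were 0.0301 and 0.0192. NOG, or noggin, a BMP trap, had the largest fold change of the list, 1.29 ± 0.39 (SE), in a region 2.28 kb from its start with an adjusted p-value of 0.0562. Among latency proteins, LTBP4, which anchors latent TGF-beta in the matrix, had a call (chromosome 19, 40601360 to 40603939) with 0.99 ± 0.27 (SE) and an adjusted p of 0.0264 in the authors' deposited table. LTBP1 had 1.12 ± 0.36 (SE) in a region 122 kb from its start and was not called. Co-receptors, signal modifiers and the other ligands held 0 calls in 26, 72 and 3 tested regions, beside 1.67% of all. At an unadjusted p-value under 0.05 they had 6, 8 and 0 regions, beside 18.4% of all.

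**Figure D4:**
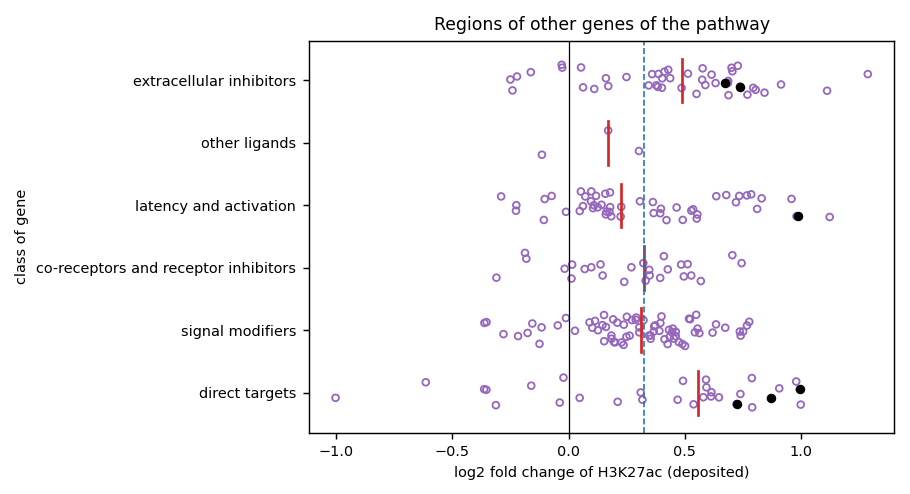
Deposited log2 fold change (horizontal axis) of the tested regions of other pathway genes, 1 circle per region, in 6 classes (vertical axis, points spread within a class for legibility). Black points are the 6 calls, short red lines are class medians, the solid line is at 0 and the dashed line at 0.32. Direct targets have the highest class median, 0.56, and also the most negative region, at TGFBI.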

How the data were processed

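H3K27ac was measured in 2 vehicle and 2 octanoate libraries of A375 cells, grouped by the treatment in the labels. The submitters' processing notes name hg38, Trim Galore, cutadapt, FastQC, Bowtie2, Picard, MACS2, featureCounts, DESeq2 and bedtools 2.29.1, without roles or order. The file analysed is the authors' deposited table of 1 comparison. Per the file headers it holds a mean level per region (a normalized signal), a log2 fold change with its standard error, a score (the statistic), a p-value and an adjusted p-value, and a distance in bases to the assigned gene. The score equalled fold change over standard error to within 3.38e-14. The deposited adjusted value of 1 was read as not computed, since Benjamini-Hochberg adjustment over the other 36436 distinct regions gave the deposited values back to within 1.58e-14. Which libraries entered is not given in the sources used here, and no test across libraries could be run.

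Lines that repeat a region for another gene were merged. Calls are deposited adjusted p-values under 0.05. Centring subtracts the median of tested regions, takes two-sided normal p-values from the authors' standard errors and adjusts over the same regions. Gene spans and promoter windows came from RefSeq (GRCh38.p14), exon annotation was not used here, and HJV was found under an older symbol. The named regions were chosen by rule, and not all of them are printed above. They were the calls, the 5 largest and 5 smallest fold changes, regions over starts and the strongest region of each gene. For the other pathway genes they were the calls with the 5 largest and 3 smallest fold changes. Further regions, such as those of INHBA, were named after their values were seen. The members and lists were chosen with earlier results of these data known. Alternatives were thresholds, adjustment over all regions, centring, filters on level and leaving out genes. Only the centring step was tried on simulated fold changes, and the other calculations were not. The software was Python 3.11.15, pandas 2.3.3 and SciPy 1.17.1. There were 0 unused columns of single libraries.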

Additional observations from a re-analysis of the deposited data

How the results depend on the processing

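The 6 calls among pathway regions became 3 with adjustment over all distinct regions, 1 at a threshold of 0.01 and 0 after centring on the median of tested regions, and 4 remained at a size of at least 1 (log2). The 6 calls among other pathway genes became 2 and 0 under the first and the last of these, and their median became 0.039 after centring. The median log2 fold change of pathway regions was -0.066 after centring, and otherwise lay between 0.25 (without INHBA) and 0.28 (without TGFB2) when each of 40 genes was left out, and at 0.35 as a median of gene medians. The share of positive regions was 72.4% with no filter on level, 90.5% at a mean level of at least 100 and 41.4% after centring. The fall under centring follows from its construction; the cause of the other shifts was not tested. Of 69 named regions that could be centred, 12 lost their call and 18 changed sign, none of them a call; the centred log2 values of these 18 were -0.037 (ACVR1), -0.066 (ACVR1B), -0.11 (BMP10), -0.23 (BMP2K), -0.087 (BMP7), -0.25 (BMPR1A), -0.11 (BMPR2), -0.053 (GDF1), -0.065 (GDF11), -0.13 (GDF5), -0.066 (GDF9), -0.096 (SMAD2), -0.12 (SMAD5), -0.0032 (SMAD6), -0.31 (SMAD6), -0.039 (SMAD7), -0.24 (TGFB2), -0.099 (TGFBR2). Over all distinct regions 7 of 75 named regions lost their call and 68 stayed on the same side of the threshold. No paired analysis was possible because values of single libraries were not analysed here, and for the same reason leaving out each library in turn was not run.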

Other observations

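The region over the RefSeq start window of SMAD4, the partner of all receptor-regulated SMADs (chromosome 18, 51028104 to 51032990), was not named with SMAD4 in the authors' deposited table but with RP11-729L2.2, and so was not a member. Its log2 fold change was 0.37 ± 0.25 (SE) at a level of 107, (adjusted p 0.382). The region named with SMAD4 lay 64 kb away, was 200 bases wide and had a level of 3.49. BMP5, a BMP of skeletal and limb development, had 14 regions in the authors' deposited table, all below the level of the authors' test, of which 6 were positive and 8 negative. Of the 22 TGFB2 regions below that level, 4 were positive and 18 negative.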
